A study of Arabidopsis thaliana with 6 samples.

Results

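The PIN-LIKES (PILS) genes of Arabidopsis thaliana (thale cress) encode auxin carriers of the endoplasmic reticulum, and all 7 of them, PILS1 to PILS7, were followed here among the 24438 genes of the study's root expression table. The genes were taken by locus: AT1G20925 (PILS1), AT1G71090 (PILS2), AT1G76520 (PILS3), AT1G76530 (PILS4), AT2G17500 (PILS5), AT5G01990 (PILS6) and AT5G65980 (PILS7). The family was selected with its levels in these libraries in view, so the levels and differences of its members are given as a description, with no test.

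The study set dissolved aluminium beside a particulate form of it. Ion roots came from plants given ionic aluminium, nanoparticle roots from plants given nanoparticles of aluminium oxide (nAl2O3), and control roots from the control group. All plants were wild type, ecotype Columbia, at the vegetative stage, and each group had 2 RNA-seq libraries. The sources used here give no doses, exposure times or growth medium, and nanoparticle replicate 2, whose other labels spell the compound nAl2O4, was grouped by its title.

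Auxin moves between plant cells through carriers of the plasma membrane, and its free level inside the cell is set further by carriers of inner membranes and by enzymes that make, conjugate or oxidise it. PILS proteins draw auxin into the endoplasmic reticulum and so lower the amount that reaches the nuclear receptors. In Arabidopsis, PILS2 and PILS5 are known to lower nuclear auxin signalling in growing organs, and PILS6 as a temperature-sensitive brake on root growth. Brassinosteroids are known to repress several PILS genes.

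The 3 promoters below belong to 3 of the 4 members whose ion and control libraries lay apart. They are shown because PILS3 was higher in ion roots while PILS2 and PILS7 were lower. Each is the run of 250 bases before the annotated transcript start in the RefSeq annotation of TAIR10.1, on the plus strand, 5′ to 3′. The PILS7 run is chr5:26392086-26392335, the PILS2 run chr1:26811906-26812155 and the PILS3 run chr1:28714515-28714764. Capitals mark matches, on either strand, to 5 motifs: TGTCTC (auxin response element), CACGTG (G-box), CGTGNG (brassinosteroid response element), GNATATNC (P1BS, bound by the phosphate regulator PHR1) and TTGACN (core of the W-box bound by WRKY factors).
PILS7: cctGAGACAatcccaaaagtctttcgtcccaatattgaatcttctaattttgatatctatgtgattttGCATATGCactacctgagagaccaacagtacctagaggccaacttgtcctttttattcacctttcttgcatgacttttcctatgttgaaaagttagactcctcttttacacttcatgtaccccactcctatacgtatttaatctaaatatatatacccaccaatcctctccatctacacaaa
PILS2: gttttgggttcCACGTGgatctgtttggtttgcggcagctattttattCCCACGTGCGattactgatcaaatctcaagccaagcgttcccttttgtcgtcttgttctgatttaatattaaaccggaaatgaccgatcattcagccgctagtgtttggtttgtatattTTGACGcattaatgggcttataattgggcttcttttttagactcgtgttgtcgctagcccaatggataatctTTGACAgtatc
PILS3: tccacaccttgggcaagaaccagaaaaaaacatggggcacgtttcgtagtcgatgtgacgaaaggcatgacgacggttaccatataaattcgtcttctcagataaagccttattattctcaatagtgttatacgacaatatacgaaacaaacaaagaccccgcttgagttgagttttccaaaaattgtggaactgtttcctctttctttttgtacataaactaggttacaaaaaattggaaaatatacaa

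The 3 promoters held different sets of these letters. The PILS7 run had 1 auxin response element, which begins 247 bases before the start and reads GAGACA on the printed strand, and 1 P1BS match, which begins 182 bases before it. The PILS2 run had 2 G-boxes, at 239 and 200 bases before the start, and 2 matches to the brassinosteroid response element that overlap the second G-box. It also had 2 W-box cores. The PILS3 run held none of the 5 motifs. That of PILS5, which was also higher in ion roots, is not shown and held 1 W-box core. Over 27443 promoters of the same length, 10.9% held the auxin response element, 6.49% the G-box, 12.5% the brassinosteroid response element, 5.46% the P1BS letters and 44.8% the W-box core. The runs before PILS1, PILS4 and PILS6 lie partly or mostly in exons of other genes and are not shown.

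Levels are the RPKM values that the authors deposited, which scale the reads of a gene to its length and to the library's total. Whole reads could be recovered from these values, and library totals were 12318429 and 14252671 reads in ion, 13798049 and 14097641 in nanoparticle and 14489392 and 13687455 in control. A count of 3 reads in a gene of 1 kilobase corresponds to an RPKM of 0.207 to 0.244. Control replicate 2 stood apart from the other libraries on the second principal component (19.4% of the variance), at -68.4 against -9.27 to 28.8, while the first (70.9%) set the ion libraries, at 87.7 and 90.2, apart from the other 4. The median log2 difference over the 19648 genes tested was 0.06 for ion against control, -0.03 for nanoparticle against control and 0.13 for ion against nanoparticle. Median-of-ratios scaling brought the last of these to 0.004 and turned its split of called genes from 2622 higher and 2347 lower into 1948 higher and 2769 lower.

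The members differed in direction. In ion roots PILS7 was nearly absent and PILS2 was lower, PILS3 and PILS5 were higher, and PILS6 overlapped with control. In nanoparticle roots PILS7 stood higher than in control, PILS2 slightly so, and the other 3 measurable members overlapped with control. PILS1 and PILS4 were at or near 0 in all 6 libraries.

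**Figure D1:**
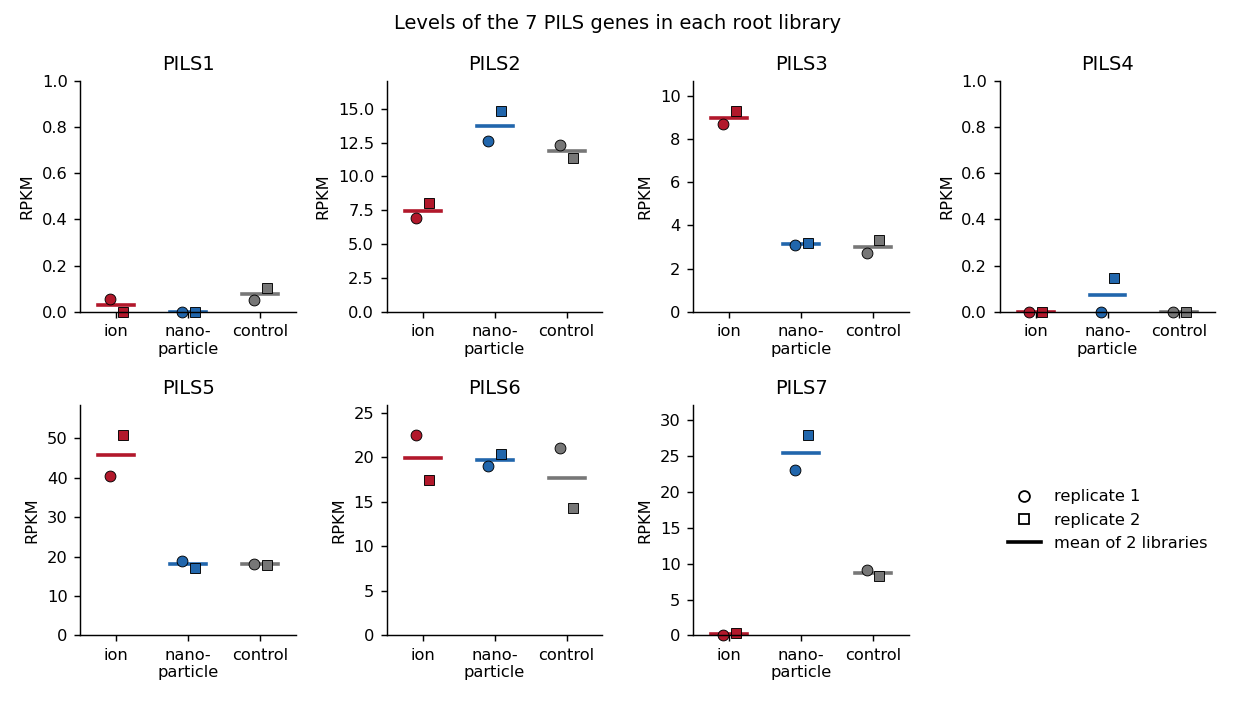
RPKM of each PILS gene (vertical axis, own scale per panel) in the 2 ion, 2 nanoparticle and 2 control libraries, with circles for replicate 1, squares for replicate 2 and a bar at the mean. PILS7 lay at 0 and 0.354 in ion, 23.1 and 28.0 in nanoparticle and 9.18 and 8.30 in control, while PILS3 and PILS5 had their highest values in ion.

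PILS7 lies at chr5:26392336-26394768 (plus strand, 8 exons, no overlapping gene) and encodes 395 residues. It had 0 and 0.354 RPKM in ion roots, 23.1 and 28.0 RPKM in nanoparticle roots and 9.18 and 8.30 RPKM in control roots. Those values rest on 0 and 6 reads in ion, 378 and 469 in nanoparticle and 158 and 135 in control. No libraries of different groups overlapped, and the order was nanoparticle, control, ion. The mean was 0.177 ± 0.251 RPKM in ion, 25.5 ± 3.5 in nanoparticle and 8.74 ± 0.620 in control (SD, n = 2 each).

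As reads per library total, PILS7 was 46.0-fold lower in ion than in control (95% counting interval 20.9 to 127) and 2.92-fold higher in nanoparticle than in control (2.55 to 3.35). Between ion and nanoparticle the difference was 134-fold (61.5 to 367), with ion the lower. In ion replicate 1 a count of 3 reads would correspond to 0.205 RPKM, so the 0 reads there place the level only under about that value. On the scale of log2(RPKM + 1), which understates changes of low genes, the fitted difference was -3.06 ± 0.23 for ion against control, 1.44 ± 0.23 for nanoparticle against control and -4.50 ± 0.23 for ion against nanoparticle (moderated SE from limma). With a pseudocount of 0.1 the ion against control value was -5.37 ± 0.66, and in a voom fit to the recovered reads -6.19 ± 0.98. Ordered by the fitted difference, PILS7 was number 128 from the lowest of 19648 genes in ion against control and number 130 from the highest in nanoparticle against control. The gene length behind its RPKM is 1188 bases, its coding length alone, whereas the lengths behind PILS2, PILS3, PILS5 and PILS6 exceed their coding lengths, so the level of PILS7 relative to those members depends on the gene models.

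Markers of root hairs, the hair-forming cells of the root surface, were compared beside PILS7. EXPA7, an expansin of root hairs, had 0.629 and 0.340 RPKM in ion, 19.8 and 20.3 in nanoparticle and 14.2 and 2.97 in control. COBL9, needed for hair tip growth, had 0.906 and 0.294 RPKM in ion, 4.92 and 5.61 in nanoparticle and 3.82 and 1.63 in control. RHD6, a regulator of hair initiation, had its mean at 12.1 ± 2.73 RPKM in ion, 5.42 ± 1.42 in nanoparticle and 6.67 ± 0.0544 in control (SD, n = 2 each). Thus EXPA7 and COBL9 shared the order of PILS7 and RHD6 did not. In bulk roots, fewer cells of a type and less RNA per cell cannot be told apart, and the part of root hair cells in the PILS7 values was not tested.

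All 11 root cell type markers had reads in every library. Their summed level was 253 to 300.1 RPKM in ion, 400 to 413 in nanoparticle and 249 to 373 in control. By limma's test over all genes (Benjamini-Hochberg adjusted p under 0.05), ion against control called 1 of them higher and 2 lower, where 12.3% of all genes were called higher and 10.3% lower. WOX5 of the stem cell niche rose by 1.09 ± 0.21 on the log2 scale (adjusted p = 0.0135), while EXPA7 (-2.40 ± 0.56, adjusted p = 0.0251) and XCP1, a protease of xylem vessels (-1.96 ± 0.17, adjusted p = 0.000834), fell. EXPA7 lost its call when ion replicate 1 (-2.54) or ion replicate 2 (-2.26) was left out, with no filter (adjusted p = 0.053) and in voom (-3.75, adjusted p = 0.0565). WOX5 lost its call when ion replicate 2 was left out. The count of 3 was 5 without control replicate 2 and 1 without ion replicate 2.

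Of 8 shoot tissue markers, 6 fell in ion against control, against 10.3% of all genes, and 0 rose, against 12.3%. An example is PSAF, a photosystem I subunit, at 1.43 ± 0.147 RPKM in ion, 12.8 ± 5.51 in nanoparticle and 10.5 ± 0.527 in control (SD, n = 2 each, adjusted p = 0.00313 by limma for ion against control). The summed level of the 8 markers was 19.0 and 24.5 RPKM in ion, 58.9 and 147 in nanoparticle and 103 and 129 in control, and LHCB1.1 was at 0 in nanoparticle replicate 1. The count was 1 without ion replicate 1 and 2 without ion replicate 2. These markers were low in the same libraries in which PILS7 was low, and their part in the PILS values was not tested.

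PILS2 (chr1:26812156-26814173, plus strand, 1 exon, no overlapping gene, 457 residues) was the other member that was lower in ion roots. It had 6.89 and 8.01 RPKM in ion, 12.6 and 14.8 RPKM in nanoparticle and 12.3 and 11.4 RPKM in control. Both ion libraries lay below the other 4, and both nanoparticle libraries lay above both controls, the nearest pair being 12.6 against 12.3 RPKM. Relative to control, the reads per library total were 1.58-fold lower in ion (1.39 to 1.80). The fitted log2 differences were -0.61 ± 0.19 for ion against control, 0.19 ± 0.19 for nanoparticle against control and -0.80 ± 0.19 for ion against nanoparticle, and the nanoparticle difference was about as large as its standard error.

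PILS5 (chr2:7606728-7609278, plus strand, 10 exons, 396 residues) was the member with the highest level in ion roots. It had 40.5 and 50.9 RPKM in ion, 18.8 and 17.2 RPKM in nanoparticle and 18.2 and 17.9 RPKM in control. The ion libraries were far above the other 4, among which nanoparticle and control overlapped. The ion level was 2.55-fold that of control (2.36 to 2.76), from 870 and 1265 reads in ion against 460 and 427 in control. The fitted log2 difference was 1.28 ± 0.18 for ion against control, 1.29 ± 0.18 for ion against nanoparticle and -0.01 ± 0.18 for nanoparticle against control.

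PILS5 overlaps the ribonuclease gene EMB2763 on the opposite strand by 43 bases, and strand handling in the counting is not given. EMB2763 had 14.7 and 13.9 RPKM in ion, 17.9 and 18.3 in nanoparticle and 20.1 and 21.0 in control, and its ion against control difference did not pass the test (adjusted p = 0.0727 by limma).

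PILS3 (chr1:28714765-28717910, plus strand, 10 exons, no overlapping gene, 390 residues) had the family's highest ratio of ion to control. Its level was 8.69 and 9.30 RPKM in ion, 3.11 and 3.18 RPKM in nanoparticle and 2.71 and 3.32 RPKM in control. Both ion libraries lay above the other 4, and both nanoparticle values fell between the control values. The ion level was 3.0-fold that of control (2.46 to 3.68), from 172 and 213 reads in ion against 63 and 73 in control, and the fitted log2 difference was 1.32 ± 0.20. For nanoparticle against control that difference was 0.05 ± 0.20.

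PILS6 (chr5:377231-379911, minus strand, 9 exons, 431 residues) showed no separation in any comparison. It had 22.5 and 17.4 RPKM in ion, 19.0 and 20.4 RPKM in nanoparticle and 21.1 and 14.3 RPKM in control. All groups overlapped, and the 2 controls were farther apart than the 2 libraries of either other group. The fitted log2 differences were 0.18 ± 0.24 for ion against control, 0.17 ± 0.24 for nanoparticle against control and 0.01 ± 0.24 for ion against nanoparticle. Without control replicate 2 the first became -0.09 and the second -0.09, so neither has a direction. PILS6 overlaps AT5G01980, a RING/U-box gene on the opposite strand, by 373 bases. AT5G01980 had 17.0 and 14.8 RPKM in ion, 23.8 and 27.6 in nanoparticle and 24.6 and 22.9 in control (adjusted p = 0.0679 for ion against control by limma).

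PILS1 and PILS4 could not be compared between groups. PILS1 had 1 and 0 reads in ion, 0 and 0 in nanoparticle and 1 and 2 in control, and PILS4 had 3 reads in nanoparticle replicate 2 and 0 elsewhere. All of these are at or below 3 reads, which correspond to 0.146 to 0.172 RPKM for PILS1 and 0.144 to 0.169 RPKM for PILS4. PILS1 overlaps 2 genes on the opposite strand, CDKB2;2, a cell cycle kinase, by 192 bases and AT1G20923 by 418 bases. AT1G20923 is not among the genes of the study's expression table. PILS1 and PILS4 stayed below the filter of RPKM 1 in at least 2 libraries, which the other 5 members passed.

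PILS3 and PILS4 are a tandem pair. They lie on the same strand with a gap of 158 bases, and their proteins are identical at 83.0% of aligned positions (323 of 389), the highest value among the family's pairs. PILS1 and PILS3 share 73.0%, PILS1 and PILS4 68.0%, PILS5 and PILS7 65.0%, and the lowest value was 30.0% for PILS4 and PILS6. The coding sequences of PILS3 and PILS4 hold an identical run of 49 bases, those of PILS1 and PILS3 one of 40 and those of PILS5 and PILS7 one of 20. The sources used here state neither the read length nor how multi-mapping reads were counted, so reads in such runs could be counted for either gene. The closest pairs did not share a pattern: PILS4 had no more than 3 reads where PILS3 had up to 213, and in ion roots PILS5 was high where PILS7 was low.

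The neighbours of the tandem pair did not pass the test in ion against control. AT1G76510, an ARID domain gene before PILS3, had 23.3 and 15.7 RPKM in ion, 14.5 and 15.0 in nanoparticle and 16.1 and 24.8 in control (adjusted p = 0.892 by limma). CDKB2;1, a cell cycle kinase that overlaps PILS4 by 44 bases on the opposite strand, had 66.9 and 47.6 RPKM in ion, 34.8 and 29.3 in nanoparticle and 45.0 and 67.4 in control (adjusted p = 0.938 by limma).

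**Figure D2:**
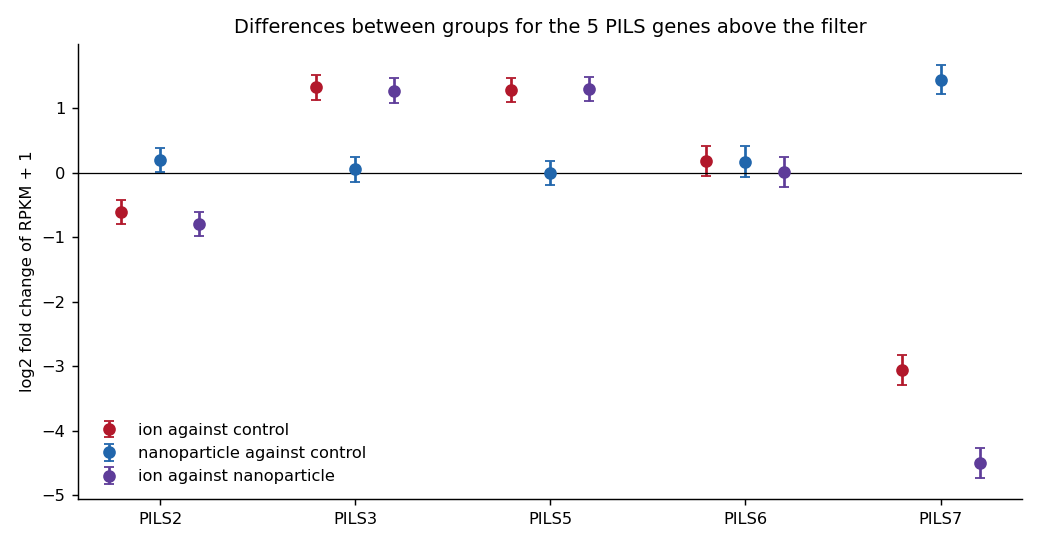
Log2 fold change of RPKM + 1 (vertical axis) for the 5 PILS genes above the filter in ion against control, nanoparticle against control and ion against nanoparticle, with bars of 1 moderated standard error. PILS7 had -3.06, 1.44 and -4.50, PILS3 and PILS5 had 1.32 and 1.28 in ion against control and lay near 0 in nanoparticle against control.

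Without control replicate 2, the library that stood apart, the ion against control difference was -3.13 for PILS7, -0.66 for PILS2, 1.27 for PILS5 and 1.43 for PILS3, and the nanoparticle against control difference of PILS7 was 1.38.

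Counted over the 5 members above the filter, both ion libraries lay above both controls for 2 (PILS3 and PILS5) and below both for 2 (PILS2 and PILS7). Over all 19648 genes tested, 34.0% lay above in this sense and 27.7% below, 61.7% together. Both nanoparticle libraries lay above both controls for 2 members (PILS2 and PILS7) and below for 0, against 20.7% and 25.2% of all genes, 45.9% together. Between ion and nanoparticle the count was again 2 above and 2 below, against 45.5% and 30.7%, or 76.2% together. The members were chosen with these values known, and nothing is read from their counts. Their median log2 difference was 0.18 in ion against control, 0.17 in nanoparticle against control and 0.01 in ion against nanoparticle. The first 2 of these comparisons share the control libraries.

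Per length of gene model, the levels of the members ranked differently in each group. In ion roots the order by mean was PILS5, PILS6, PILS3, PILS2 and PILS7, and no neighbours overlapped, the nearest being PILS3 and PILS2 with 8.69 and 9.30 against 6.89 and 8.01 RPKM. In nanoparticle roots PILS7 came first, with both of its libraries above those of every other member, and PILS6 and PILS5 followed without overlap, the nearest pair being 19.0 RPKM for PILS6 and 18.8 for PILS5. In control roots PILS5 and PILS6 overlapped at the top, PILS2 and PILS7 followed without overlap, and PILS3 came last of the 5.

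**Figure D3:**
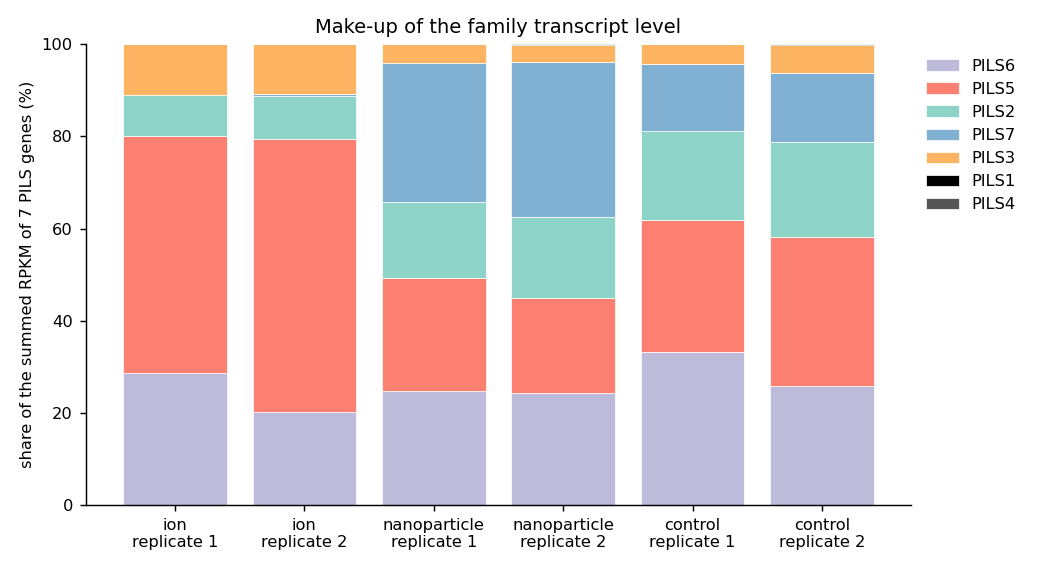
Share of the summed RPKM of the 7 PILS genes (vertical axis, percent) held by each gene in the 2 ion, 2 nanoparticle and 2 control libraries. PILS5 held 51.5% and 59.2% in ion, and PILS7 held 30.1% and 33.4% in nanoparticle.

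The summed level of the family was 78.6 and 85.9 RPKM in ion, 76.5 and 83.8 RPKM in nanoparticle and 63.5 and 55.3 RPKM in control. Ion and nanoparticle sums overlapped, and both lay above control, but different genes made them up. PILS5 held 51.5% and 59.2% of the sum in ion, 24.5% and 20.5% in nanoparticle and 28.6% and 32.3% in control. PILS7 held 0.0% and 0.412% in ion, 30.1% and 33.4% in nanoparticle and 14.5% and 15.0% in control. PILS3 held 11.1% and 10.8% in ion, 4.07% and 3.80% in nanoparticle and 4.26% and 6.0% in control, while PILS2 held 8.77% and 9.32% in ion, 16.5% and 17.7% in nanoparticle and 19.4% and 20.6% in control. The level of PILS5 was 143-fold that of PILS7 in ion replicate 2, 0.814-fold and 0.614-fold in nanoparticle and 1.98-fold and 2.15-fold in control.

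Other auxin genes were read from lists, by limma's test over all 19648 genes with Benjamini-Hochberg adjustment. The lists were chosen with earlier results of these data known, so their counts beside the shares of all genes are a description. In ion against control 12.3% of all genes were called higher and 10.3% lower (22.6% together), or 2418 and 2028 genes, a split that turned to 2075 and 2294 under median-of-ratios scaling and 2068 and 2355 under quantile normalization. In ion against nanoparticle the shares were 13.3% and 11.9% (25.3% together). In nanoparticle against control 0.0% of genes were called, 0 by limma and 0 by voom, with 1307 genes at an unadjusted p under 0.05, so no list had a called member there. Without control replicate 1, the only control left was replicate 2, the library that stood apart on the second principal component. That fit did call genes, list members among them, so the absence of calls did not hold in every setting. The cause was not tested. List members are named by the size of their change among those called.

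Besides the PILS genes, the carriers of inner membranes were PIN5 and PIN6 of the endoplasmic reticulum and WAT1 of the vacuole. PIN5 had 1.77 and 1.13 RPKM in ion (40 reads), 0.480 and 0.202 in nanoparticle (10 reads) and 0 reads in control, and was called higher in ion against control (adjusted p = 0.0135 by limma), though not without ion replicate 1 or with library weights (adjusted p = 0.0626). PIN6 had 1.61 ± 0.0514 RPKM in ion, 1.30 ± 0.149 in nanoparticle and 0.791 ± 0.275 in control (SD, n = 2 each), and its difference from control did not pass (adjusted p = 0.121 by limma). WAT1, at 199 ± 24.7 RPKM in ion, 212 ± 19.5 in nanoparticle and 240 ± 6.72 in control, did not pass either (adjusted p = 0.375 by limma). Of the 4 carriers listed, PIN8 is not among the genes of the study's expression table.

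Of 13 plasma membrane carriers, 4 rose in ion against control and 0 fell, with a median log2 difference of 0.46 against 0.06 for all genes. Among them were the auxin exporters PIN3 (0.96 ± 0.20, adjusted p = 0.0172) and PIN7 (0.65 ± 0.17, adjusted p = 0.0383) and the importer LAX2 (0.98 ± 0.17, adjusted p = 0.00943), by limma's test. The PIN7 call was lost under median-of-ratios scaling (adjusted p = 0.0575 by limma), quantile normalization (adjusted p = 0.0521), the replicate block (adjusted p = 0.0724), library weights (adjusted p = 0.0965) and the 2-group fit (adjusted p = 0.114). Leaving out either nanoparticle library left 1 call, and all calls were lost without ion replicate 1 and most without ion replicate 2. More carriers were called without control replicate 1, where more of all genes were called too.

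**Figure D4:**
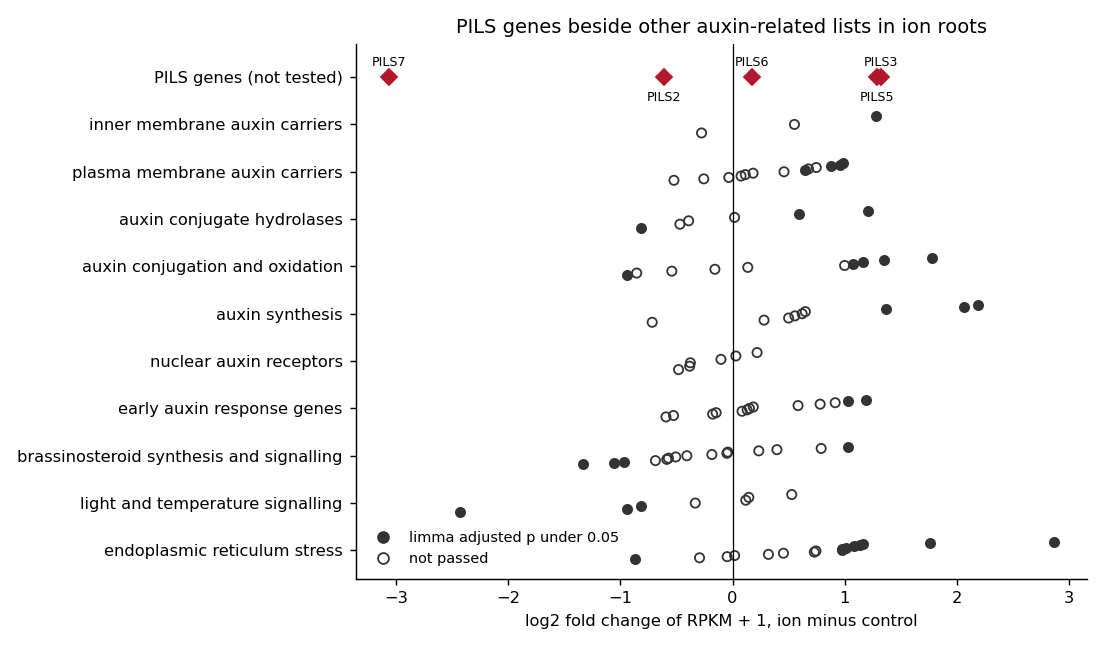
Log2 fold change of RPKM + 1, ion minus control (horizontal axis), for 5 PILS genes (diamonds, not tested) and for the tested members of 10 lists (circles, filled where limma's adjusted p was under 0.05). PILS7, at -3.06, lay lower than every listed gene shown, PIF5 being the nearest at -2.43, and BIP3 was the highest at 2.87.

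Of 9 enzymes of auxin synthesis tested, 3 rose in ion against control and 0 fell, with a median of 0.62. YUC9, which converts indole-3-pyruvate to auxin, had 7.25 and 11.8 RPKM in ion, 1.77 and 1.12 in nanoparticle and 1.42 and 1.5 in control (adjusted p = 0.00349 by limma). CYP79B2, which makes indole-3-acetaldoxime for camalexin, glucosinolates and auxin, was called at 2.19 ± 0.32 (adjusted p = 0.00467 by limma). CYP79B3, of the same P450 family, went the other way, with 52.3 and 68.3 RPKM in ion, 115 and 116 in nanoparticle and 111 and 88.3 in control. Its ion against control difference did not pass (-0.72 ± 0.22, adjusted p = 0.0547 by limma). TAA1, which makes indole-3-pyruvate, was called at 1.37 ± 0.28 (adjusted p = 0.0147 by limma). The CYP79B2 call was lost without ion replicate 2 and the TAA1 call without ion replicate 1, and the count was 5 without control replicate 2.

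In the list of auxin conjugation and oxidation, 4 of 10 tested rose in ion against control and 1 fell. The list also holds the methyl esterase MES17, which neither conjugates nor oxidises auxin. DAO2, an auxin dioxygenase, had 25.9 and 47.2 RPKM in ion, 8.16 and 8.05 in nanoparticle and 9.98 and 8.96 in control (adjusted p = 0.00664 by limma). GH3.17, which joins auxin to glutamate, fell, with 16.9 and 21.0 RPKM in ion, 51.1 and 55.6 in nanoparticle and 39.1 and 35.2 in control (adjusted p = 0.0138 by limma). GH3.6, GH3.1 and IAMT1 were the other 3 called higher. The count was 2 without either ion library.

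Several conjugate hydrolases free auxin from its amino acid conjugates in the endoplasmic reticulum, though not every listed member need act on auxin. Their list was mixed, with 2 of 6 tested called higher (ILL6 and ILR1) and 1 lower (ILL3) and a median of -0.19. None of these 3 calls was made when any 1 of the ion or nanoparticle libraries was left out. All 6 nuclear auxin receptors were uncalled in both ion comparisons, with a median of -0.24 in ion against control. Some were called without control replicate 1, where more of all genes were called too. Of 13 early auxin response genes tested, IAA30 (1.19 ± 0.27, adjusted p = 0.021 by limma) and IAA1 (1.03 ± 0.21, adjusted p = 0.016 by limma) rose in ion against control and 0 fell. Both calls were lost without either ion library, and the count was higher without control replicate 1, as it was over all genes.

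Regulators reported for PILS genes were read in the same way. Of 15 brassinosteroid genes, 1 rose and 3 fell in ion against control, with a median of -0.41. BAS1, which inactivates brassinosteroids, had 3.05 and 4.10 RPKM in ion, 11.8 and 12.5 in nanoparticle and 11.1 and 9.79 in control (adjusted p = 0.00554 by limma). The transcription factors BZR1 (-0.05 ± 0.17, adjusted p = 0.854) and BES1 (0.23 ± 0.19, adjusted p = 0.415) did not pass limma's test. The synthesis enzyme CYP90D1 and the receptor inhibitor BKI1 also fell, and BR6OX2, an enzyme of the last synthesis steps, rose. The count was lower without either ion library and higher without control replicate 1, as it was over all genes.

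Of 7 light and temperature regulators tested, 3 fell in ion against control and 0 rose. PIF5, a growth-promoting transcription factor of shade and light signalling, had 0.979 and 0.507 RPKM in ion, 6.74 and 6.87 in nanoparticle and 6.32 and 10.8 in control (adjusted p = 0.00214 by limma). PHYA and PIF1 were the other 2, and the count was 1 when ion replicate 2 or either nanoparticle library was left out and with the replicate number as a block. PHYB did not pass (0.15 ± 0.21, adjusted p = 0.639 by limma), and PIF4, with means of 0.475 RPKM in ion, 0.430 in nanoparticle and 1.005 in control, was below the filter.

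Genes of the stress response of the endoplasmic reticulum, the membrane that holds the PILS proteins, formed the last list. Of 16 tested, 8 rose in ion against control and 1 fell, with a median of 0.86. BIP3, a stress-induced chaperone, had 7.60 and 6.50 RPKM in ion, 0.103 and 0.0335 in nanoparticle and 0.0326 and 0.173 in control (adjusted p = 0.000545 by limma). ERDJ3A, a co-chaperone, had 4.51 and 4.51 RPKM in ion, 0.925 and 1.01 in nanoparticle and 0.678 and 0.574 in control (adjusted p = 0.00199 by limma). IRE1A, a sensor of unfolded proteins, was the 1 that fell (-0.87 ± 0.18, adjusted p = 0.0171 by limma). The count of 9 was 2 when ion replicate 1 was left out and 4 when ion replicate 2 or either nanoparticle library was.

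Set against nanoparticle instead of control, ion roots gave the following counts of called list members. Called higher were 6 plasma membrane carriers, PIN5 of the inner membranes, 4 synthesis genes, 1 conjugation gene, 1 hydrolase, 4 early response genes, 1 brassinosteroid gene and 10 genes of endoplasmic reticulum stress. Called lower were 1 synthesis gene, 2 hydrolases, 4 brassinosteroid genes, 2 light genes and 1 gene of endoplasmic reticulum stress. From the conjugation list, GH3.17 and the methyl esterase MES17 were also called lower. Of the root cell type markers 4 were higher and 3 lower, and 5 shoot markers were lower. With 1 library left out, each of these lists had its lowest count without an ion or a nanoparticle library: 0 called for the plasma membrane carriers without either nanoparticle library, 0 for the hydrolases and for PIN5 without any 1 of the 4, 0 for the early response genes without nanoparticle replicate 2 or ion replicate 1, 1 for synthesis and for the brassinosteroid genes without either nanoparticle library, and 2 for endoplasmic reticulum stress and the root markers without nanoparticle replicate 2. The conjugation list had 6 called without either control library, where 8101 and 8068 of all genes were called, against 4969 in the main fit.

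For each member, the 2 most similar genes by Pearson correlation of log2(RPKM + 1) over the 6 libraries were taken from 14996 genes with a mean RPKM of at least 5. With 3 groups that lie apart, such values mostly record the order of the groups and are a description. PILS7 was nearest to the receptor-like kinase gene AT5G37450 (r = 0.998), which had 1.27 and 1.60 RPKM in ion, 13.9 and 15.9 in nanoparticle and 8.85 and 8.35 in control, and to AT5G48657 (r = 0.997). PILS3 was nearest to OPR1, an oxophytodienoate reductase (r = 0.9996, with 84.6 and 103 RPKM in ion, 7.41 and 7.62 in nanoparticle and 5.88 and 8.90 in control), and to the bZIP factor TGA7 (r = 0.999). PILS5 was nearest to AT1G43910, a nucleoside triphosphate hydrolase gene, and to OPR2, a close copy of OPR1 (r = 0.999 for both), and reads of the 2 OPR genes may be split uncertainly.

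PILS2 was nearest to PUT5, a polyamine transporter of the amino acid permease family, and to the reticulon gene AT3G10260 (r = 0.998 for both). PILS6 was nearest to LPA3, a photosystem assembly factor (r = 0.993), and to AT3G12650 (r = 0.985). Genes at r of at least 0.99 numbered 117 for PILS3, 112 for PILS5, 45 for PILS7, 43 for PILS2 and 1 for PILS6.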

How the data were processed

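RNA was sequenced from 6 root libraries, 2 per group, and libraries were grouped by title, with 0 columns left unmapped. No label states that a group's libraries are separate cultures, and p-values therefore cover only the possibly technical spread of these libraries. The authors deposited RPKM for 24438 genes, a unit named by their table, and TopHat2 2.0.12, HTSeq 0.6.0 and TAIR10 appear in the submitters' processing notes. How strand and multi-mapping reads were handled was not given in the sources used here.

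Whole reads could be read back from the RPKM steps of 24438 genes (tolerance 1e-06). Of the loci, 23678 (96.9%) matched TAIR10.1, whose nuclear coordinates are those of TAIR10. Intervals (95%) and the floor of 3 reads cover counting error only. limma 3.58.1 (R 4.3.3) tested log2(RPKM + 1) with a mean-variance trend for 19648 genes (80.4%) at RPKM 1 or more in at least 2 libraries, in 1 fit of 3 groups (3 residual and 3.81 prior degrees of freedom), two-sided, Benjamini-Hochberg adjusted p under 0.05. The code was tested on simulated data. Proteins were translated from the genome and aligned with MAFFT 7.526, and promoters were read with pysam 0.24.0 (Python 3.11.15) over 250 bases before the start, since no promoter table was used here. Some sequences and genes are not reported here.

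The members and the 12 gene lists (131 genes) were chosen with earlier results of these data known. Named genes are up to 4 called members of each list with the largest change, the 2 genes most like each member, the neighbours of PILS3 and PILS4, and PIN5, PIN6, PIN8, WAT1, BZR1, BES1, PIF4 and PHYB. Alternatives covered pseudocount, filter, scaling, replicate block, 2-group fits, library weights, each library left out, and voom.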

Additional observations from a re-analysis of the deposited data

How the results depend on the processing

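All 225 fold changes of the family, over 3 comparisons and 15 alternatives for each of the 5 members above the filter, kept their direction where they exceeded the spread between libraries; 212 moved by less than that spread and 13 by more. Differences near 0 changed sign under some settings, namely those of PILS3 and PILS5 in nanoparticle against control and of PILS6 in all 3 comparisons. Genes called numbered 4446 for ion against control, against 2758 when only the 2 groups entered the fit, 2904 with library weights, and 1865 (without ion replicate 2) to 7732 (without control replicate 1) with 1 library left out. Ion against nanoparticle called 4969 genes, against 8055 in the 2-group fit, 8277 with library weights and 1351 (without nanoparticle replicate 2) to 8101 (without control replicate 1) with 1 left out. Nanoparticle against control called 0, also by voom, and 0 to 3426 with 1 left out, the highest without control replicate 1. PILS members whose nanoparticle and control libraries did not overlap numbered 2 of 5, against 45.9% of all genes, and 2 to 4 with 1 library left out, with 4 without either control library. With fewer libraries a group, overlap is less likely by the rule itself. The share over all genes was not taken with a library left out, so nothing is read from those counts. The cause of the shifts in genes called was not tested.

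The replicate numbers pair nothing in the labels. The deviations of same-numbered libraries correlated at -0.164 for ion and control, -0.0541 for nanoparticle and control and 0.0755 for ion and nanoparticle. With the replicate number as a block, 3733 genes were called for ion against control, 4043 for ion against nanoparticle and 0 for nanoparticle against control. Crossing the ion numbers in the block, chosen after seeing the data, gave 4450 for ion against control.

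Calls of named list genes held in 859 of the checks and were lost in 209, and list counts stayed within 1.5 times the main count in 437 and moved further in 103. The planned test with edgeR was not run, since the deposited values are RPKM, and voom on recovered reads, added after seeing the data, took its place. With 2 libraries a group, depth limits PILS1 and PILS4, at 3 reads or fewer in every library, and the ion level of PILS7, at 0 and 6 reads.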

Other observations

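The order seen for PILS7, nanoparticle above control above ion, was sought in all 19648 genes tested after the PILS7 values had been seen, so the counts are a description. Without overlap between groups, 1214 genes had this order. At least 2-fold steps between neighbouring group means were present in 173 of them, and 100 of these, PILS7 included, had a nanoparticle mean of at least 5 RPKM. The opposite order with the same steps, and with the limit of 5 RPKM set on the ion mean, was found for 20 genes. The genes named next were picked by hand from the 100 for their known roles, and no test of any gene group was made on them. Their values are means of 2 libraries, which hide the spread between libraries. EXPA7, whose 2 control libraries lay far apart, is also among the 100, and nanoparticle against control called 0 genes by limma. IRT1, the iron importer, had mean levels of 0.0947 RPKM in ion, 30.4 in nanoparticle and 7.55 in control, and FRU, the regulator of iron uptake also called FIT, had 1.91 in ion, 32.4 in nanoparticle and 13.8 in control. The ferric reductase FRO2 had 0.307 RPKM in ion, 17.1 in nanoparticle and 5.43 in control. Among nitrogen transporters, NRT2:1 had 0.578 RPKM in ion, 108 in nanoparticle and 35.6 in control, and AMT1;3 had 0.510 in ion, 28.6 in nanoparticle and 11.7 in control. PHT1;3, a phosphate transporter, had 0 RPKM in both ion libraries, with 24.7 in nanoparticle and 5.83 in control.

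RHS13, a root hair gene, had mean levels of 0.817 RPKM in ion, 91.0 in nanoparticle and 33.2 in control, and RHS19 had 2.07 in ion, 90.5 in nanoparticle and 40.3 in control. XTH14, a xyloglucan-modifying enzyme of the root surface, had 1.77 RPKM in ion, 51.1 in nanoparticle and 21.7 in control. The water channel gene PIP2B, one of a pair of near-identical copies, had the highest level of the 100, with 402 RPKM in ion, 3206 in nanoparticle and 1531 in control.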
